A study of Mus musculus with 16 samples.

Results

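The step from the common myeloid progenitor (CMP) to the megakaryocyte-erythroid progenitor (MEP) was followed by setting 3 CMP arrays against 3 MEP arrays, 6 of the 16 arrays of the series. The 6 arrays were taken by title, not by a measured value. All cells came from bone marrow of female C57Bl/6 mice aged 6 to 8 weeks, with 10 to 20 mice pooled for each sample. Marrow was depleted of lineage-positive cells, enriched for c-kit and sorted, CMP as LIN- ckit+ Sca1- cells with intermediate CD34 and Fc gamma receptor and MEP as LIN- ckit+ Sca1- cells negative for both. The third population from this sort, the granulocyte-monocyte progenitor (GMP, CD34+ FcRg+, 3 arrays), served as the reference for the other branch. Each array held 577 microRNAs (miRs), of which 237 passed the filter on dim probes. CMP is the label of a gate, and the purity of these pools was not given in the sources used here.

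CMP can give rise to both GMP and MEP, and MEP to the red cell and platelet lineages. A miR is a short RNA that lowers the output of messenger RNAs which pair with its seed, the bases next to its 5' end, so miRs with one seed share many predicted targets. Erythroid cells are known for miR-144 and miR-451, which are cut from one transcript driven by the erythroid factor GATA-1, and granulocytes and monocytes for miR-223.

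The mature sequences on which the comparison turns are given 5' to 3' as RefSeq lists them for GRCm38.p6, with the seed (bases 2 to 8) in capitals. The erythroid pair, with the largest differences toward MEP, is first.
miR-144: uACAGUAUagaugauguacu
miR-451: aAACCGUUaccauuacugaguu
The next miRs share the seed AGUGCAA and are shown because miR-721 was called in the opposite direction to the others.
miR-130a: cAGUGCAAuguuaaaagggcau
miR-130b: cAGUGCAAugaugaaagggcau
miR-301a: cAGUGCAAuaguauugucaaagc
miR-721: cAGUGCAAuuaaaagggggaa
The following families, each with a seed of its own, were higher in CMP in every member shown.
miR-99a: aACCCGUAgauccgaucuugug
miR-100: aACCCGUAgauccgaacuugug
miR-125b-5p: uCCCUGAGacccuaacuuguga
miR-181a: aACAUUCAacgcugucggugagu
miR-181b: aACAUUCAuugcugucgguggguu
miR-221: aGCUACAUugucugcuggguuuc
miR-222: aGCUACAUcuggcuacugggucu
Single miRs with large differences, or known for a lineage, complete the set, the first 5 higher in CMP and the last 4 higher in MEP.
miR-223: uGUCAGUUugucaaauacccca
miR-27a: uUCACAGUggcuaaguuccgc
miR-126-3p: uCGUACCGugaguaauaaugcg
miR-10a: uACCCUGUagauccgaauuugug
miR-196b: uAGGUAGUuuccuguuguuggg
miR-370: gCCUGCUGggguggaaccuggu
miR-574-5p: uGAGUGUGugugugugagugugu
miR-762: gGGGCUGGggccgggacagagc
miR-30c-1*: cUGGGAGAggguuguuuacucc
RefSeq sequences were at hand for 175 of the 235 tested mouse miRs. The 2 viral miRs that passed the filter are not described.

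Values are log2 of the quantile-normalized, background-subtracted signal, given for arrays 1, 2 and 3 in that order. Arrays 1 and 2 of CMP, MEP and GMP lay on slide 1 and array 3 on slide 2. Of the other populations in the fit, all multipotent progenitor (MPP) arrays lay on slide 3. Short-term hematopoietic stem cell (ST-HSC) array 1 and the long-term (LT-HSC) array lay on slide 2, and ST-HSC arrays 2 and 3 on slide 3. The floor was log2 1.62, and values at the floor have no order. A miR was well above background on an array where at least 0.5 of its spots were flagged so by the scanner software. A difference is CMP minus MEP on the log2 scale ± its standard error (SE). It was called where limma gave an adjusted p under 0.05 over all 237 miRs.

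Arrays of a population were close to each other. Pearson's r over the 237 miRs was 0.989 for the CMP pair and 0.983 for the MEP pair on slide 1, between 0.947 and 0.965 for arrays of a population on different slides, and between 0.714 and 0.833 for a CMP against a MEP array. Slides differed in brightness, with negative controls (95th percentile) at 9.94 to 44.3 units on the CMP and MEP arrays of slide 1 and at 1.53 to 2.21 on those of slide 2. The labels were checked against lineage miRs. All 3 erythroid miRs were well above background on every MEP array, with a summed signal of 4044 to 6187 units, and 1 or 2 of the 3 on each CMP array, with 88.1 to 258. MiR-223 was detected on every array, with 5385 to 7524 units in CMP and 306 to 1567 in MEP. No stromal (0 of 5) or liver miR was detected. Epithelial miRs numbered 0 or 1 of 7 in CMP and 0 in MEP, neural miRs 1 to 3 of 5 in CMP and 1 in MEP, and lymphoid miRs 2 of 2 in CMP and 0 in MEP, and their part in the differences was not tested. MEP 1 stood apart by muscle miRs, which no other CMP or MEP array had: miR-1 at 7.12, miR-133a at 6.63, miR-133b at 7.29 and miR-206 at 4.05. Without MEP 1 limma called 153 miRs, 50 of them higher in MEP. In such bulk samples fewer cells of a type and less RNA per cell cannot be told apart.

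Of the erythroid miRs, miR-451 was 37.0-fold and miR-144 at least 30.9-fold higher in MEP. MiRs known from stem cells and from granulocytes and monocytes were higher in CMP, by 14.2-fold for miR-99a and 8.25-fold for miR-223. Limma called 153 of the 237 miRs (64.6%), 104 higher in CMP (43.9%) and 49 higher in MEP (20.7%). No CMP array overlapped a MEP array for 163 miRs (68.8%), 111 with CMP above (46.8%) and 52 with MEP above (21.9%). All 153 called miRs had the same sign within slide 1, where 2 arrays stood against 2, and within slide 2, where 1 stood against 1. With slide as a block 82.3% were called, 62 miRs higher in MEP and the others higher in CMP, among them all 153 in the same direction. The median difference of all tested miRs was 0.55, not 0, so the split between the directions depended on the scaling. Scaled to the 75th percentile of the detected probes, 71 were higher in CMP and 65 higher in MEP with a median of 0.23, and in the authors' deposited values 83 and 62 with a median of 0.13. Where all 6 arrays were well above background (115 miRs), 67 were called, 47 higher in CMP and 20 higher in MEP. Of the 153 called miRs 16 were not well above background on any of the 6 arrays.

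**Figure D1:**
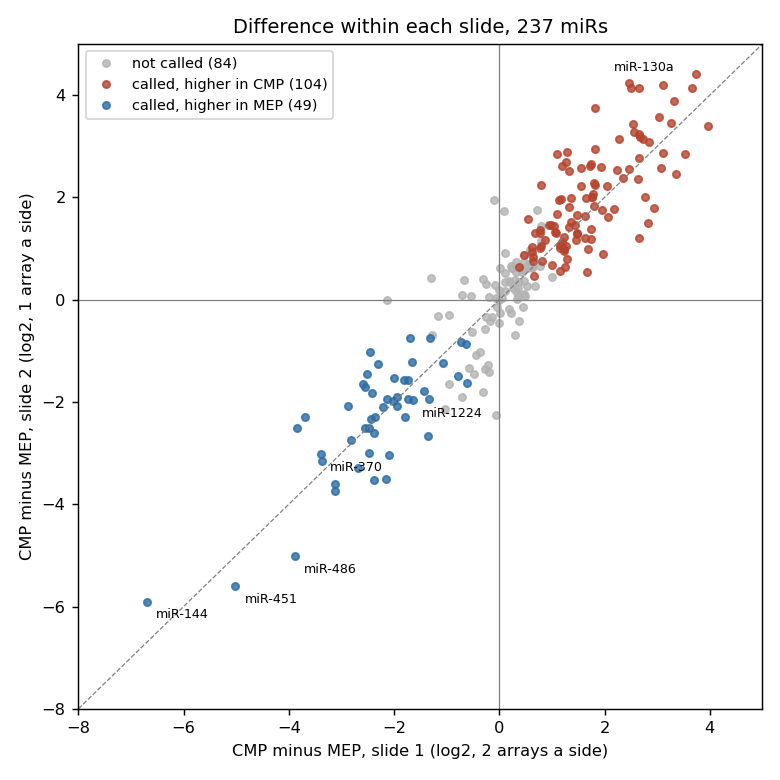
CMP minus MEP (log2) for each of the 237 tested miRs within slide 1 (horizontal axis, 2 arrays a side) and within slide 2 (vertical axis, 1 array a side), with the dashed line marking equal differences. The 104 miRs called higher in CMP all lie in the upper right and the 49 called higher in MEP all in the lower left.

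The largest differences toward MEP were those of the erythroid miRs, and all 3 of 3 were called, against 20.7% of all tested miRs. MiR-144, which with miR-451 is needed for red cell maturation, measured 3.04, 1.62 and 3.78 in CMP and 9.14, 8.93 and 9.69 in MEP. It was not well above background on any CMP array but was on all MEP arrays, and it was at least 30.9-fold higher in MEP (limma adjusted p = 4.23e-06). MiR-451, unusual among miRs in being cut by Argonaute 2 instead of Dicer, measured 7.83, 6.26 and 6.63 in CMP and 12.39, 11.73 and 12.24 in MEP. It was well above background on all 6 arrays, without overlap, and the difference was -5.21 ± 0.61 (SE), or 37.0-fold (limma adjusted p = 8.68e-06). MiR-486, an erythroid miR from the ankyrin 1 locus, measured 4.45, 3.08 and 2.89 in CMP and 7.91, 7.40 and 7.91 in MEP, a difference of -4.26 ± 0.49 (limma adjusted p = 8.68e-06). In CMP only array 1 had it well above background, and that array was also the highest for miR-451. The miR-451 difference was -5.01 within slide 1 and -5.60 within slide 2. With normexp background correction and an offset of 50, which narrows differences near background, it was -4.53 for miR-451 and -1.77 for miR-486, and all 3 miRs were still called. In the array annotation (mm9) the miR-144 probe lies at chr11:77886549-77886568 and the miR-451 probe at chr11:77886688-77886709. In the RefSeq table (GRCm38.p6) neither miR lies within another gene.

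**Figure D2:**
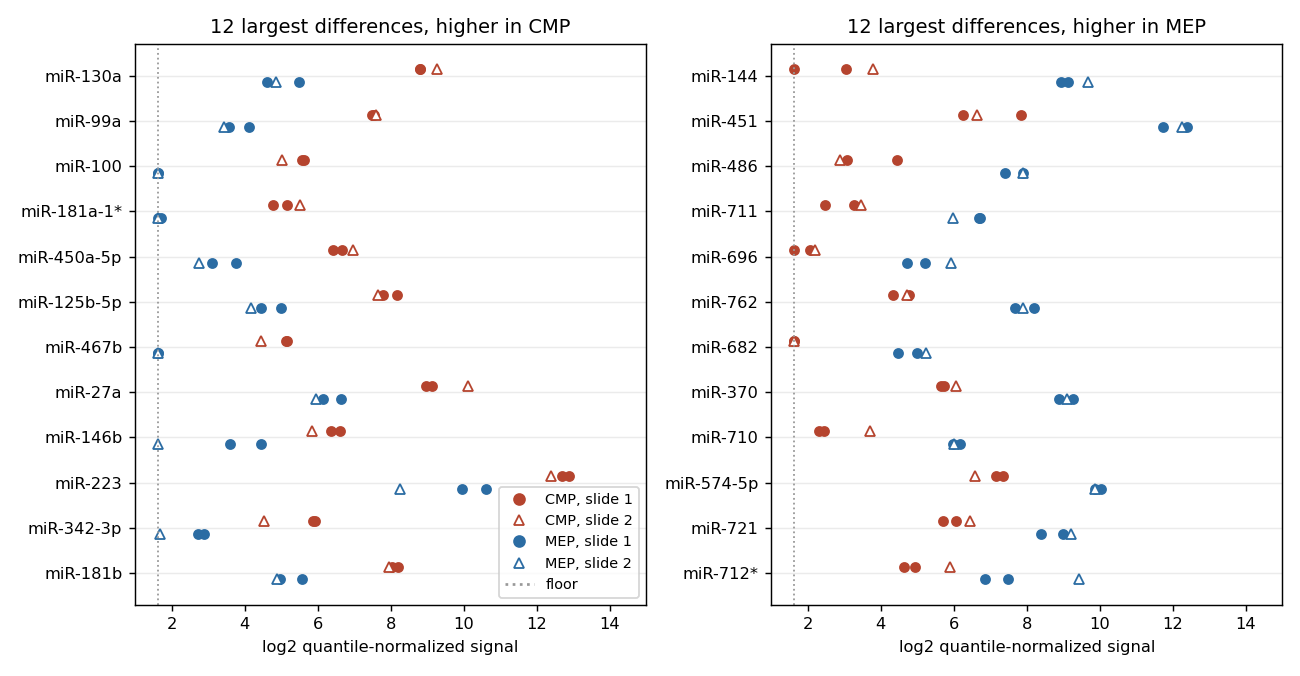
Log2 signal on each CMP (red) and MEP (blue) array for the 12 miRs per direction with the largest differences, chosen among called miRs without overlap and well above background on all arrays of the higher side. Circles are slide 1, triangles slide 2 and the dotted line the floor. Each row shows CMP and MEP apart, with miR-144 at 1.62 to 3.78 in CMP and 8.93 to 9.69 in MEP.

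A further 2 groups held many of the other miRs higher in MEP. The imprinted Dlk1-Dio3 domain on chromosome 12 holds a long run of miRs, with 67 on the array and 7 tested. Of these, 4 of 7 were called, all higher in MEP (0 of 7 higher in CMP). Of all tested miRs 64.6% were called and 20.7% were higher in MEP. The median was -1.93 against 0.55 for all tested. MiR-370, which lies in the noncoding RNA Rian of that domain, measured 5.65, 5.72 and 6.07 in CMP and 9.28, 8.88 and 9.09 in MEP. The groups lay well apart, by -3.27 ± 0.48 (limma adjusted p = 6.61e-05). MiR-494 differed by -2.07 (limma adjusted p = 0.0013). MiR-134 was not well above background in CMP and was at least 1.98-fold higher in MEP (limma adjusted p = 0.000312). MiR-376c was detected on MEP 1 only, the array with the muscle miRs, and was not called.

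The other group was the atypical entries of the annotation, those from miR-680 to miR-721 with miR-762, miR-763, miR-801, miR-805 and miR-1224, several of which derive from other RNA classes: miR-1224 is a mirtron, cut from a short intron by splicing, miR-712 lies in the spacer of the ribosomal RNA precursor, and miR-720 is regarded as a transfer RNA fragment. Of 25 tested, 19 were higher in MEP and 1, miR-720, higher in CMP, against 20.7% and 43.9% of all tested miRs. The median was -2.41. MiR-762 measured 4.34, 4.76 and 4.73 in CMP and 8.19, 7.66 and 7.88 in MEP, a difference of -3.30 ± 0.30 (limma adjusted p = 1.08e-06). MiR-721 differed by -2.79 (limma adjusted p = 0.000168) and miR-712* by -2.77 (limma adjusted p = 0.00221). Neither miR-711, miR-710, miR-696 nor miR-682 was well above background on a CMP array. Their excess in MEP was at least 4.49-fold, 3.36-fold, 1.98-fold and 1.51-fold (adjusted p in limma 0.000218, 0.000401, 2.87e-05 and 5.76e-08). MiR-720 had a difference of 1.43 (limma adjusted p = 5.66e-05), and was not called when arrays were scaled to the 75th percentile of detected probes or left without normalization.

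**Figure D3:**
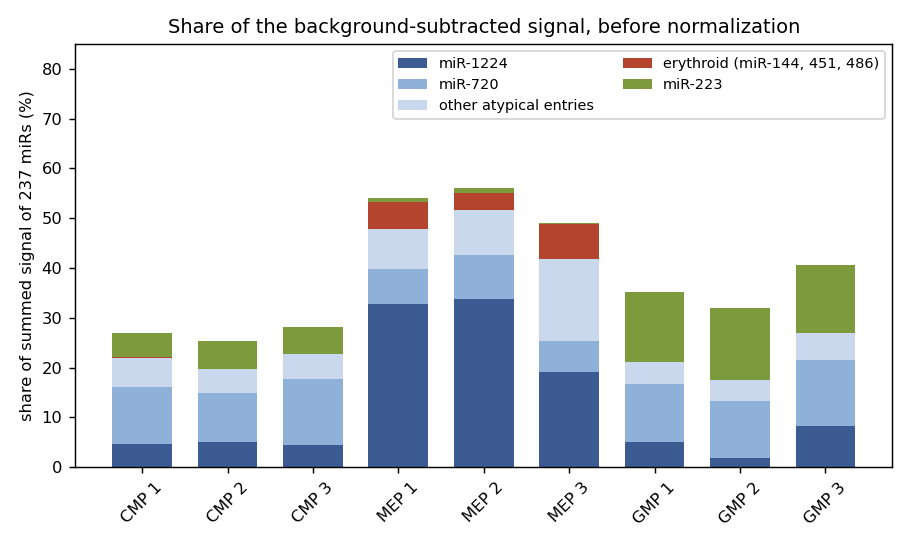
Share of the summed background-subtracted signal of the 237 miRs (%, bars from 0) that miR-1224, miR-720, the other atypical entries, the erythroid miRs and miR-223 took on each CMP, MEP and GMP array before normalization. The atypical entries took 19.7% to 22.7% in CMP and 41.7% to 51.7% in MEP.

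The atypical entries also took a large part of the raw signal. Before normalization they held 21.9%, 19.7% and 22.7% of the summed signal of the tested miRs in CMP and 47.7%, 51.7% and 41.7% in MEP. MiR-1224 alone held 4.64%, 5.05% and 4.40% in CMP and 32.8%, 33.8% and 19.2% in MEP. Quantile normalization gives the brightest probe of every array the same value, 14.04, which was miR-720 in CMP and miR-1224 in MEP, so the normalized miR-1224 difference of -1.75 (limma adjusted p = 0.00413) was smaller than that of the shares. The erythroid miRs held 0.278%, 0.0778% and 0.136% in CMP and 5.49%, 3.35% and 7.13% in MEP. With the atypical entries left out before normalization, 130 of the remaining 212 miRs were called, 88 higher in CMP and 42 higher in MEP, and the median difference was 0.38. The part of RNA quality or of other RNA classes in these differences was not tested.

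Outside both groups, miR-574-5p, from an intron of Fam114a1, measured 7.17, 7.35 and 6.57 in CMP and 10.02, 9.86 and 9.86 in MEP. This was a difference of -2.88 ± 0.38 without overlap (limma adjusted p = 2.71e-05). The study's own list of MEP miRs had 29 of 35 tested members higher in MEP and 0 higher in CMP. That list was chosen on these arrays and is not independent evidence.

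Granulocyte-monocyte and inflammatory miRs were higher in CMP, with 5 of 5 called, against 43.9% of all tested miRs, and a median of 2.56. MiR-223, which restrains granulocyte production and activation, measured 12.70, 12.88 and 12.39 in CMP and 9.96, 10.61 and 8.26 in MEP. The groups did not overlap, and the lowest MEP value was on slide 2. The difference was 3.05 ± 0.43 (limma adjusted p = 4.21e-05), 2.50 within slide 1 and 4.14 within slide 2. MiR-146b, which like miR-146a damps NF-kB signalling, differed by 3.06 ± 0.52 (limma adjusted p = 0.000227) and lay at the floor on MEP 3. MiR-155, which targets the myeloid factor PU.1, measured 7.14, 7.33 and 5.83 in CMP and 4.38, 4.57 and 3.82 in MEP, a difference of 2.51 (limma adjusted p = 0.000323). MiR-21 was bright on both sides and differed by 0.89 (limma adjusted p = 0.0144), a call lost without CMP 3. MiR-146a was not well above background in MEP, was at least 2.61-fold higher in CMP (limma adjusted p = 0.000811), and was not called with normexp or in the authors' values. In the GMP arrays, which share slides with both, miR-223 was the brightest probe, at 14.04 on each.

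Every listed member of the miR-99/100, miR-125 and let-7e group was called higher in CMP, 6 of 6 against 43.9% of all tested miRs. The median was 3.01, and 3 of the 6 were well above background on all CMP arrays. These miRs are transcribed in clusters known from hematopoietic stem cells, where miR-125b raises self-renewal. MiR-125a-3p, from the same hairpin as miR-125a-5p, was not on that list. It was called higher in MEP, at -1.54 ± 0.52 (limma adjusted p = 0.0182). Each of the 6 arrays had this arm well above background, and MEP lay above CMP without overlap. That call was lost without CMP 1, CMP 2 or MEP 3, and without the filter on dim probes. MiR-99a measured 7.54, 7.50 and 7.58 in CMP and 3.58, 4.12 and 3.45 in MEP. The CMP values lay close together, far above MEP, and the difference was 3.83 ± 0.24 (limma adjusted p = 5.76e-08). MiR-125b-5p measured 8.17, 7.80 and 7.65 in CMP and 4.45, 5.0 and 4.19 in MEP, a difference of 3.33 ± 0.27 (limma adjusted p = 4.97e-07). MiR-100, with the seed of miR-99a, measured 5.62, 5.56 and 5.02 in CMP and was at the floor on all MEP arrays. It was at least 3.35-fold higher in CMP (limma adjusted p = 8.68e-06). Let-7e was called higher in CMP (limma adjusted p = 4.21e-05). It passed the background test in CMP 1 alone and in no MEP array, so no fold is given. In the authors' deposited values let-7e was not called (limma adjusted p = 0.143). MiR-99b and miR-125a-5p were dim on all 6 arrays (limma adjusted p = 0.00642 and 0.000174), and a further probe of miR-99b had the opposite sign. These values depended on how signal near background was treated: with normexp the differences were 1.59 for miR-99a, 1.69 for miR-125b-5p and 0.63 for miR-100, each still called, and let-7e and miR-99b were no longer called.

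The listed miRs from within the Hox gene clusters were higher in CMP in 4 of 4 cases, against 43.9% of all tested miRs, with a median of 2.70. MiR-10a*, the other strand of the miR-10a hairpin, was not on that list and was not called (0.81, limma adjusted p = 0.0727). It was not well above background on any CMP or MEP array. MiR-196b, from the Hoxa cluster, measured 7.80, 7.65 and 6.72 in CMP and 4.29, 5.01 and 4.15 in MEP, without overlap, and differed by 2.91 ± 0.34 (limma adjusted p = 8.68e-06). MiR-10a, from within Hoxb3, differed by 2.83 ± 0.55 (limma adjusted p = 0.000554). It was lower on slide 2 in both populations, at 6.79 in CMP 3 and 3.61 in MEP 3. In MEP neither miR-10b nor miR-196a was well above background, and CMP exceeded it by at least 1.94-fold and 1.87-fold (limma adjusted p = 0.00742 and 0.000811). Only 2 of the 4 listed miRs were well above background on all CMP arrays. The miR-10b bound includes a CMP array near background, since it was well above background on 2 CMP arrays. MiR-10b was not called with normexp (limma adjusted p = 0.0736), in the authors' deposited values (0.0842) or without normalization (0.0505), which left 3 of 4. The arms of miR-126, a regulator of stem cell quiescence held in an intron of Egfl7, rose together in CMP. MiR-126-3p measured 7.58, 7.40 and 7.12 in CMP and 5.54, 5.54 and 5.37 in MEP, a difference of 1.88 ± 0.35 (limma adjusted p = 0.000437).

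MiR-130a had the largest difference toward CMP. It is known to fall as megakaryocytes mature in culture. It measured 8.80, 8.80 and 9.28 in CMP and 4.62, 5.49 and 4.87 in MEP, and no array overlapped. The difference was 3.97 ± 0.38, or 15.6-fold (limma adjusted p = 1.92e-06). The other members of the family, miR-130b, miR-301a and miR-301b, were called in the same direction with smaller differences of 1.15, 1.29 and 1.84. Thus 4 of 4 were higher in CMP, against 43.9% of all tested miRs.

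The miR-181 family, first known from lymphoid development, was higher in CMP in 4 of 4 members, against 43.9% of all tested miRs. Its median was 2.51. MiR-181b measured 8.19, 8.04 and 7.96 in CMP and 4.97, 5.56 and 4.88 in MEP, a difference of 2.93 ± 0.23 (limma adjusted p = 2.61e-07). MiR-181a differed by 2.86 (limma adjusted p = 8.68e-06). Its passenger strand miR-181a-1* was not well above background in MEP and was at least 2.83-fold higher in CMP (limma adjusted p = 5.1e-08).

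Of the miR-23/27/24 clusters, that of miR-23a is induced by PU.1 and known to favour myeloid over lymphoid fate. The listed members of these clusters were higher in CMP in 5 of 5 cases. The share of all tested miRs was 43.9%, and the median of the 5 was 2.10. MiR-27a, which targets the factor Runx1, measured 8.98, 9.14 and 10.12 in CMP and 6.15, 6.63 and 5.97 in MEP. The highest CMP value and the lowest MEP value were on slide 2, and the difference was 3.16 ± 0.32 (limma adjusted p = 2.87e-06). MiR-23a differed by 2.84 ± 0.20 (limma adjusted p = 1.35e-07). MiR-24, which represses an activin receptor in red cell precursors, differed by 2.10 ± 0.24 (limma adjusted p = 8.68e-06). MiR-221 and miR-222, which target the stem cell factor receptor Kit and slow erythroid growth, were also higher in CMP. MiR-221 measured 9.09, 8.95 and 8.84 in CMP and 6.34, 6.39 and 5.60 in MEP, a difference of 2.85 ± 0.24 (limma adjusted p = 5.7e-07). MiR-222 differed by 2.49 ± 0.18 (limma adjusted p = 1.35e-07).

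**Figure D4:**
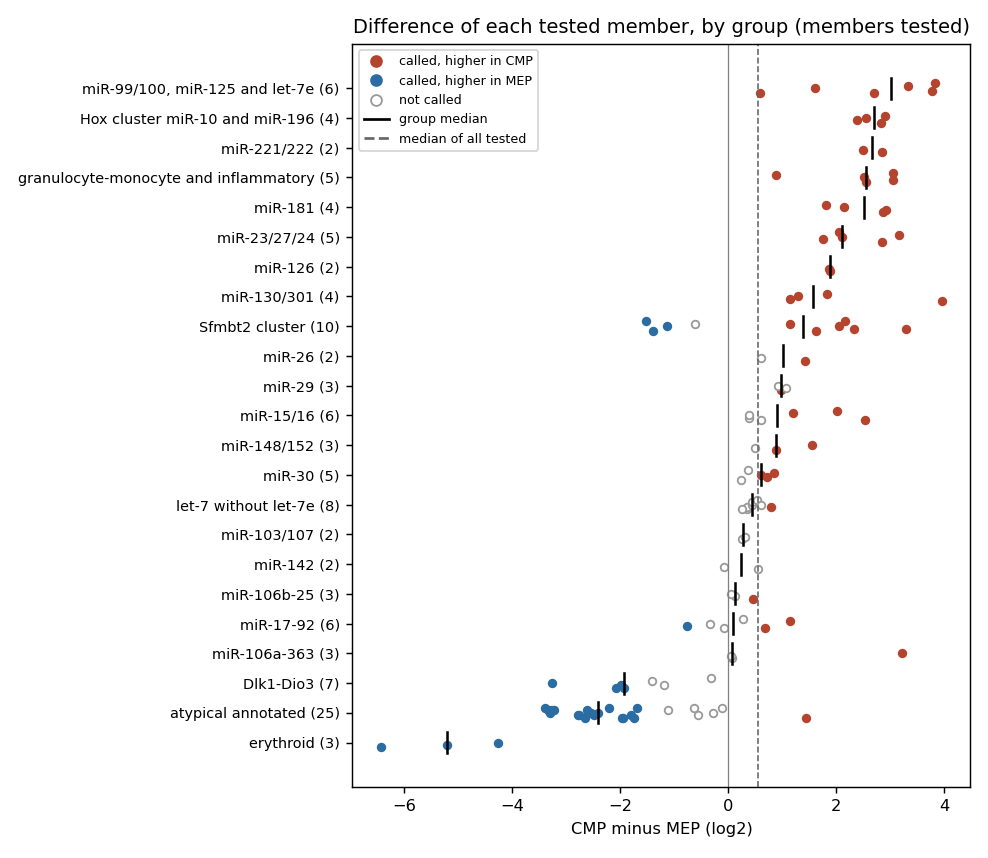
CMP minus MEP (log2) of each tested miR by group, with the number tested in parentheses, filled points for called miRs, open points for miRs not called, black bars for group medians and a dashed line for the median of all tested miRs (0.55). The erythroid, atypical and Dlk1-Dio3 groups have medians below 0 and the miR-99/100, Hox and miR-221 with miR-222 groups have medians above the dashed line.

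Of 18 miRs with reported roles in megakaryocyte or erythroid development, 11 were higher in CMP and 3, the erythroid miRs, were higher in MEP, where the shares of all tested miRs were 43.9% and 20.7%. MiR-150, which lowers Myb and favours megakaryocytes when raised in MEP, measured 6.09, 5.65 and 4.66 in CMP and 3.17, 3.85 and 2.28 in MEP. It was not well above background on any MEP array, and was at least 3.49-fold higher in CMP (limma adjusted p = 0.000437). MiR-342-3p, which like miR-150 is abundant in lymphocytes, was at least 3.47-fold higher in CMP (limma adjusted p = 5.57e-05). MiR-16 and miR-15a of this group were bright in both and did not pass, with differences of 0.39 and 0.60 (limma adjusted p = 0.469 and 0.138), but both were called higher in CMP once slide was a block (0.0235 and 0.000557).

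Several abundant families differed little, where 43.9% of all tested miRs were called higher in CMP and 20.7% higher in MEP. Of the 8 let-7 miRs other than let-7e, which time differentiation in many tissues, 1 was called, let-7i at 0.79 (limma adjusted p = 0.00228), and the median was 0.44. A slide block brought the number higher in CMP to 8 of 8. In the cluster of miR-17 to miR-92a, which supports progenitor growth, 2 of 6 were higher in CMP and 1 was higher in MEP, with a median of 0.09. MiR-19b measured 13.44, 12.70 and 12.70 in CMP and 12.07, 11.92 and 11.40 in MEP, a difference of 1.15 (limma adjusted p = 0.00261). MiR-92a differed by 0.67 (limma adjusted p = 0.0225), a call lost without CMP 1 or MEP 3. MiR-18a, of the same transcript, measured 8.90, 8.88 and 8.80 in CMP and 9.71, 9.52 and 9.62 in MEP, without overlap and in the other direction, by -0.76 ± 0.17 (limma adjusted p = 0.00139). These 3 calls turned on the scaling: those of miR-19b and miR-92a were lost when arrays were scaled to the 75th percentile of detected probes, that of miR-18a with the 75th percentile of all probes, and all 3 without normalization, with miR-18a at 0.074. In the related miR-106a-363 cluster 1 of 3 tested members was called, miR-363, which was at least 2.43-fold higher in CMP (limma adjusted p = 1.88e-07). In CMP miR-363 was well above background on 2 arrays. Of the miR-142 arms, which mark blood cells in general, 0 of 2 were called (limma; 0 at an unadjusted p under 0.05), and 1 of 2 in the fit with a slide block, miR-142-3p, higher in CMP (limma adjusted p = 0.00817).

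Tested miRs that lie within 10000 bases of each other formed 46 clusters of 2 or more. In 15 every member was called in one direction, in 9 there were calls in both directions and in 9 there was no call. Of all tested miRs 43.9% were higher in CMP and 20.7% higher in MEP, and some clusters are only the arms of 1 hairpin. Whether neighbours went together more often than these shares give was not tested. The members named here were chosen after their values were seen. On chromosome X the cluster of miR-322, miR-503, miR-542 and miR-450, the mouse form of the human miR-424 cluster, had 7 of 8 tested miRs higher in CMP. The share of all tested miRs was 43.9%. Among the 7, miR-450b-3p and miR-450b-5p were not well above background on any CMP or MEP array. MiR-542-3p and miR-542-5p were so on 1 CMP array each and on no MEP array. MiR-450a-5p measured 6.41, 6.66 and 6.96 in CMP and 3.11, 3.76 and 2.76 in MEP, was not well above background in MEP, and was at least 8.14-fold higher in CMP (limma adjusted p = 5.75e-06). MiR-322 differed by 2.01 (limma adjusted p = 8.69e-06). The remaining one, miR-450a-3p, was called in the other direction, higher in MEP (-1.73, limma adjusted p = 0.0111). It passed the background test on 1 MEP array alone, and no fold is given. Its call was lost without CMP 1, CMP 2 or MEP 3. MiR-30c-1*, not well above background in CMP, had an excess of at least 2.19-fold in MEP (limma adjusted p = 2.87e-06). MiR-30c, which also has another locus, was higher in CMP by 0.61 (limma adjusted p = 0.0108), near the median of 0.55 for all tested miRs. That call was lost with the atypical entries left out (0.26, limma adjusted p = 0.245) and without normalization (limma adjusted p = 0.0905).

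The Sfmbt2 cluster, a large intronic repeat of related miRs, had 6 of 10 tested members higher in CMP and 3 higher in MEP, against 43.9% and 20.7% of all tested miRs. Without normalization 5 were higher in CMP and 0 in MEP, and 3 of the 10 were not well above background on any of the 6 arrays. MiR-467b of this cluster was at the floor on all MEP arrays and at least 2.39-fold higher in CMP (limma adjusted p = 3.25e-06). Its members are near-identical, and signal may be shared between their probes.

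Grouped by seed, 21 seeds had more than 1 tested miR, and 1 of these had calls in both directions. This was AGUGCAA, with miR-130a at 3.97 and miR-721 at -2.79. Their sequences are printed above. Base composition could not be compared between the directions, since sequences were at hand for 82.7% of the miRs higher in CMP and 63.3% of those higher in MEP.

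GMP shows whether a level in CMP is shared with the other branch. The CMP arrays enter both comparisons, so the 2 are not independent. Limma called 18 of 237 miRs between CMP and GMP (7.59%), 11 higher in CMP (4.64%) and 7 higher in GMP (2.95%), and 68 with slide as a block, among them all 18 in the same direction. The 18 became 9, 10 and 8 without CMP 1, CMP 2 and GMP 3, 11 without any 1 of the 3 MPP arrays, 28 without MEP 3 and 33 without ST-HSC 1. MiR-144 was at 1.91 ± 0.499 (SD, n = 3) in GMP, 2.81 ± 1.10 in CMP and 9.25 ± 0.391 in MEP, with CMP and GMP not called apart (limma adjusted p = 0.61) unless slide was a block (0.0390). MiR-451 was at 5.37 ± 0.566 in GMP, 6.91 ± 0.823 in CMP and 12.12 ± 0.350 in MEP, with no call between CMP and GMP (1.54, limma adjusted p = 0.15). For miR-221 the means were 8.85 in GMP, 8.96 in CMP and 6.11 in MEP, and for miR-27a 9.68, 9.41 and 6.25. MiR-130a, miR-99a and miR-125b-5p were called between CMP and GMP as well, with GMP at 7.59, 6.40 and 6.70, between CMP at 8.96, 7.54 and 7.87 and MEP at 4.99, 3.72 and 4.55. The CMP minus GMP differences were 1.37, 1.14 and 1.17 (limma adjusted p = 0.0447, 0.0112 and 0.0209). MiR-126-3p was at 5.88 ± 0.516 in GMP and 5.48 ± 0.10 in MEP, and CMP exceeded GMP by 1.49 (limma adjusted p = 0.0209). MiR-223 was highest in GMP, and CMP minus GMP was -1.38 (limma adjusted p = 0.0572, and 0.0109 with the slide block). The miRs called higher in GMP than in CMP included miR-148a (-1.39, limma adjusted p = 0.00191) and miR-18a (-0.59, limma adjusted p = 0.0466).

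**Figure D5:**
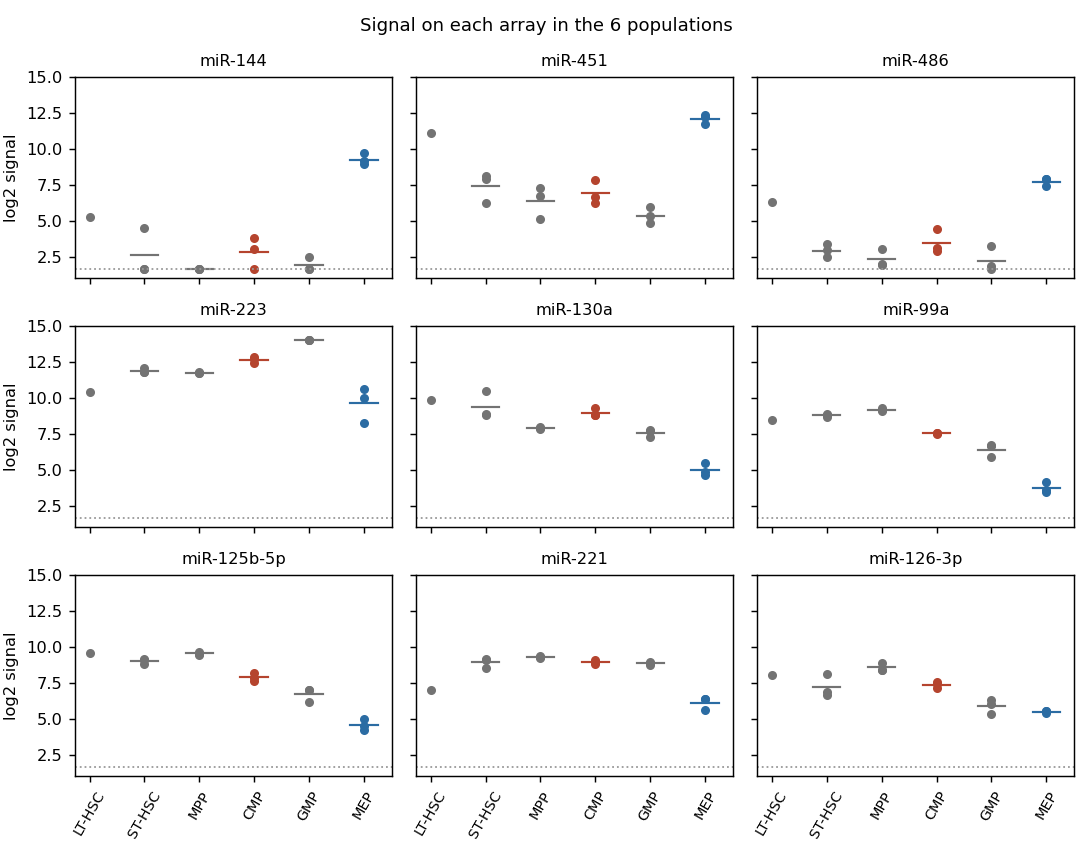
Log2 signal of 9 miRs on each of the 16 arrays, by population, with points for arrays, bars for means and the dotted line for the floor. MiR-144, miR-451 and miR-486 are highest in MEP, where miR-223, miR-130a, miR-99a, miR-125b-5p and miR-221 are lowest, with miR-451 next highest on the single LT-HSC array at 11.15.

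Detected miRs were counted as those with a probe well above background. They numbered 157.7 ± 11.7 in CMP and 171 ± 7.94 in MEP (SD, n = 3 each). The highest CMP count, 168, lay within the MEP range of 165 to 180. The difference of -13.3 did not pass (two-sided exact permutation test over 20 splits, p = 0.3, where 0.1 is the smallest possible).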

How the data were processed

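Cy3-labelled RNA was hybridised to Agilent mouse miR arrays of 12493 spots, 1 sample an array. Total RNA was extracted from Trizol with a miRNeasy Micro kit. The deposited scanner files hold spot intensity in arbitrary units, background-subtracted by Feature Extraction (version 9.5.3.1 on slide 1, 10.2.1.3 on slides 2 and 3, read on scanners G2505B and G2505C), with coordinates on mm9 per the file headers. The authors also deposited log2 values, used here as an alternative. Their rows follow the spots of the scanner files, ranked as the median signal (rho of 1 on every array), with medians of 5.41 to 5.44. The study's methods name quantile normalization.

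From the spot intensities, probe means over the 11540 spots of miRs were quantile-normalized over all 16 arrays, set to a floor of 3.07 units (95th percentile of 672 negative controls, as a median of the arrays), and log2-transformed. Of 1712 probes 493 were well above background (at least 0.5 of spots) on 3 or more arrays, and each miR took the value of its brightest such probe. Limma 3.58.1 (lmFit and eBayes, R 4.3.3) fitted one mean per population over 16 arrays without covariates (10 residual and 3.10 prior degrees of freedom), as the study's methods name limma and no covariate. P-values were adjusted by Benjamini-Hochberg over 237 miRs. Where no array of a side was well above background, a difference is given as a bound, the mean of the bright side over the mean of the higher of the probe's own signal and the lowest signal well above background on each array. Named miRs were the 12 per direction with the largest differences among called miRs that showed no overlap and were well above background throughout the higher side, and members of lists. The arrays were taken by title, but this comparison, its members and the lists were chosen with earlier results of these data known. On simulated data 76.7% of 60 miRs changed by 1.5 (log2) were recovered among 237, and 2.13% of calls were false. In the real data 153 miRs were called, with differences of many sizes, so these rates need not hold for them. No spot was saturated. The number of arrays limits the precision. Without a slide term, p-values measure the spread between arrays of a population, which holds both that between pools of mice and that between slides.

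The labels number 2 of the 3 arrays of a population, and the unnumbered array was taken as replicate 3. Alternatives were other scalings, floors, filters, background corrections and blocks, and leaving out each array.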

Additional observations from a re-analysis of the deposited data

How the results depend on the processing

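The number of miRs called between CMP and MEP ran from 138 (without MEP 3) to 168 (without ST-HSC 1) when 1 array was left out, and was 67 of 115 when every CMP and MEP array had to be well above background and 99 without normalization between arrays. With a floor at the highest detection limit among the 6 arrays (log2 4.65), an alternative chosen after seeing the data, 96 were called, 93 of them in common with the 153 and in the same direction. Without a filter 165 of 577 were called, and 161 of 237 at an unadjusted p under 0.05. Between CMP and GMP the number called was 18, and became 32 with scaling to the 75th percentile of detected probes, 2 without normalization, 68 with slide as a block and 44 on slide 1, and ran from 8 to 33 when 1 array was left out.

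Of 68 miRs followed one by one, 1 changed sign, miR-18a at 0.074 without normalization (limma adjusted p = 0.939). The floor at the detection limit ended 13 calls, among them miR-100, miR-467b, miR-342-3p, miR-10b, miR-196a and miR-503, and leaving out normalization ended 9 with the sign kept, among them miR-10b, miR-130b, miR-720, miR-30c and let-7i. The cause was not tested. Values within slide 2 have no test, and 33 of the 68 moved by more than the spread between arrays, all with the sign kept.

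Samples with the same replicate number deviated together, with correlations of 0.397, 0.397 and 0.626 between CMP and MEP. Those of different number on slide 1 did as well (0.298 and 0.323), and the unnumbered CMP and MEP arrays are those of slide 2. With the replicate block, 173 miRs were called between CMP and MEP (179 with GMP in the fit), among them all but 1 of the 153, in the same direction. Normexp was not applied to the number of detected miRs, which rests on flags of the scanner software, and slide 2 alone gives no number of calls. The difference in detected miRs ran from -18.5 to -7 when 1 array was left out.

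A miR near background has a difference whose size, more than its direction, depends on the floor, and the 30 miRs called higher in CMP and the 20 called higher in MEP at background on every array of the other side are bounds. Within a scaling, a shift of all miRs cannot be told apart from a change in the amount of miR per cell.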
